A study of Mus musculus with 2 samples.

Results

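Hnf4a, Foxa1, Foxa2, Foxa3, Cebpa, Nr5a2, Onecut1 and Prox1 code for transcription factors that set and hold the identity of hepatocytes, the main cells of the liver. The 8 genes were named with earlier results of these data known and found by name among 19439 genes on a mouse oligonucleotide array. They have 9 of its 31920 gene probes: a pair for Hnf4a and 1 for each other gene. Their RNA was followed in regrowing liver that has or lacks the phosphatase Wip1. Of the 8 genes, 6 were above background in all 4 RNAs, Cebpa in 3 of the 4, and Prox1 in none.

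The RNA came from livers of wild-type (WT) mice and of Wip1 knockout (KO) mice, aged 3 months, collected 24 h or 36 h after partial hepatectomy. In this operation part of the liver is cut away, and hepatocytes of the remnant re-enter the cell cycle to restore its mass. All 4 RNAs were from operated livers, so the level before surgery is not known from these data. Each time had 1 array with 2 colours, with Cy5 on the RNA of Wip1 KO and Cy3 on that of WT, and no array had the dyes exchanged. The labels do not say how the Wip1 allele was made, how many animals gave each RNA, or their sex and strain. Wip1 is the product of Ppm1d and removes phosphate from p53 and kinases of the DNA damage response. The single Ppm1d probe was not above background in any of the 4 channels, so which channel holds KO RNA rests on the labels.

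These factors form a network in adult liver, in which each binds regulatory regions of other members and of genes for plasma proteins, clotting factors and metabolic enzymes. FOXA proteins open closed chromatin in the embryonic endoderm, HNF4A is needed for the epithelial and metabolic state of hepatocytes, and C/EBP alpha, the product of Cebpa, is known to hold back hepatocyte division. During regrowth after hepatectomy, dividing hepatocytes keep most of their metabolic work while part of the differentiated programme is turned down for a time.

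A signal was taken as above background when foreground minus local background was over 2 SDs of that background, which held for 31.1% to 41.4% of gene probes per channel. A gene was measured in a comparison when both of its channels passed, and called when they were at least 2-fold apart. With 1 array per time there is no replicate, no test and no p-value, and precision is limited by the small number of arrays. Log2 ratios of control genes spotted 48 times had SDs of 0.10 to 0.13 at 24 h and 0.15 to 0.17 at 36 h within an array. Their means were not all near 0 and ran from -0.07 to 0.63 at 24 h and from -0.36 to 0.04 at 36 h. Different probes of 1 gene had an SD of 0.26 for the genotype ratios at both times, 0.33 for the WT times and 0.38 for the KO times. Differences between members below these SDs were not set apart from measurement spread. The spread between animals could not be measured.

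Hnf4a, a nuclear receptor, stands at the centre of the network. Its brighter probe (M300001623) had signals over background of 3084.5 in WT and 2956 in Wip1 KO at 24 h, and of 2712 in WT and 4438 in Wip1 KO at 36 h. On the normalised log2 scale these were 11.55, 11.65, 11.37 and 12.22. The KO liver at 36 h was highest, and the other 3 differed by less than the probe spread between times. The other Hnf4a probe (M400010268) was not above background in any channel, with signals of 7 to 29, and gives no second reading.

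Foxa1, Foxa2 and Foxa3 are forkhead factors that can bind their sites in packed chromatin. Foxa1 (M200001820) had signals over background of 315 in WT and 380 in Wip1 KO at 24 h, and of 504.5 and 440 at 36 h, or log2 levels of 8.44, 8.89, 9.11 and 9.15. Foxa2 (M200000340) had signals of 200.5 and 232 at 24 h and of 286.5 and 331 at 36 h, or log2 levels of 7.90, 8.31, 8.43 and 8.83. Both were lowest in WT at 24 h and highest in Wip1 KO at 36 h, while the middle pair differed by less than the probe spread, and for Foxa1 the 36 h levels were near equal. Foxa3 (M200013953) ran the other way over time, with signals of 1542.5 in WT and 1400 in Wip1 KO at 24 h and of 1161 and 877 at 36 h. Its log2 levels were 10.55, 10.60, 10.20 and 10.00, so the genotypes lay within the probe spread of each other at both times.

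Cebpa and Onecut1 had their highest level in Wip1 KO at 36 h. Cebpa (M300009629) was dim, with signals over background of 141 in WT at 24 h, 134 in WT at 36 h and 273 in Wip1 KO at 36 h. In Wip1 KO at 24 h its signal was 78, which is 1.18 background SDs and not above background. Its log2 levels in the 3 measured RNAs were 7.53, 7.63 and 8.65. Onecut1 (M200001372), which codes for the cut homeobox factor HNF6, had signals of 1332 in WT and 876 in Wip1 KO at 24 h and of 1284 and 2721 at 36 h. Its log2 levels were 10.34, 9.98, 10.34 and 11.55, so both WT livers were equal, KO at 24 h was below them and KO at 36 h stood well above all others.

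Nr5a2 codes for LRH-1, a nuclear receptor that drives genes of bile acid and cholesterol handling. Its probe (M300005083) had signals over background of 1330.5 in WT and 800 in Wip1 KO at 24 h, and of 747 and 1087 at 36 h. The log2 levels were 10.34, 9.86, 9.61 and 10.30. WT at 24 h and KO at 36 h were the high pair and lay close together, and KO at 24 h and WT at 36 h were the low pair. Prox1 (M200003891), a homeobox factor that acts with HNF4A, had signals of 4 to 38, at most 0.97 background SDs. Its level and its ratios could not be measured, which does not show that the gene was silent.

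**Figure D1:**
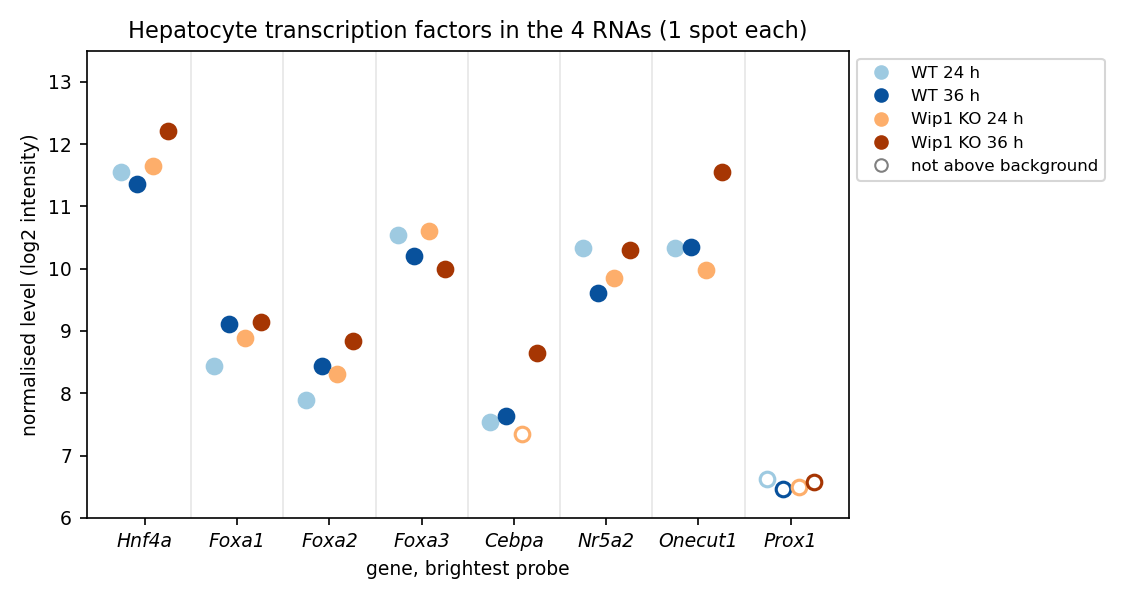
Normalised log2 intensity of the brightest probe of each gene in the 4 RNAs, 1 point per RNA and no error bars because there is no replicate. Filled points are above background and open points are not. Onecut1 at 11.55, Hnf4a at 12.22 and Cebpa at 8.65 are highest in Wip1 KO at 36 h, and heights are not comparable between genes since each has its own probe.

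The 4 genes with the highest KO over WT ratio at 36 h are shown with the 250 bases before their RefSeq starts, to give the sequence next to the genes that stood apart. The build is GRCm38.p6, each window is printed 5′ to 3′ on the strand of its gene, and capitals mark matches to the motifs searched. Hnf4a has a pair of start sites, an upstream one (chr2:163506607-163506856, plus strand) and a downstream one (chr2:163546905-163547154, plus strand), of which the downstream is the main one in adult liver. Nr5a2 also has a pair, at chr1:136960449-136960698 and chr1:136953631-136953880 on the minus strand. Onecut1 has chr9:74861671-74861920 and Cebpa chr7:35119043-35119292, both on the plus strand.
Hnf4a upstream: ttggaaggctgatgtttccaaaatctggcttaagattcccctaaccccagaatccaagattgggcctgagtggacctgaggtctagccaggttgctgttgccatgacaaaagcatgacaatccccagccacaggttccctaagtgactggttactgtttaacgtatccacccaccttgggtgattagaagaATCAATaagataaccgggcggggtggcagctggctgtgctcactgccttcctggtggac
Hnf4a downstream: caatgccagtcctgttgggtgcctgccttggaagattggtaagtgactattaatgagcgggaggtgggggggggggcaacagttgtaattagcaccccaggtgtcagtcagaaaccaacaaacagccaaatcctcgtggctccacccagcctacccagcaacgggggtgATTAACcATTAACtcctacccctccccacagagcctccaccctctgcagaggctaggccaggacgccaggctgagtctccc
Nr5a2 upstream: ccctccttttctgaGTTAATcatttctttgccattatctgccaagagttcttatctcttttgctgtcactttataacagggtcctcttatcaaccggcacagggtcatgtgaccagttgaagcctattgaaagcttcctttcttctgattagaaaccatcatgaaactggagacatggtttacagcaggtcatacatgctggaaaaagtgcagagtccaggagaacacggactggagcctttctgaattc
Nr5a2 downstream: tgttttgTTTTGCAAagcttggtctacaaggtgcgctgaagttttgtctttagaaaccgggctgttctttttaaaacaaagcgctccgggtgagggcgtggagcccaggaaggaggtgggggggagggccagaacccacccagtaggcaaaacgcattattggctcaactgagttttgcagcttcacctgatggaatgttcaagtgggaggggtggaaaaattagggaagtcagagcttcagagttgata
Onecut1: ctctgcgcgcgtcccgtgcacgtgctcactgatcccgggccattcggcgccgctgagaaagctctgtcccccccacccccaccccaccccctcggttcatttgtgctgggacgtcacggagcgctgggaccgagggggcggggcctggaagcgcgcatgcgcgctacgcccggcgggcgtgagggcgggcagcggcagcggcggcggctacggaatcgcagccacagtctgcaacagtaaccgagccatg
Cebpa: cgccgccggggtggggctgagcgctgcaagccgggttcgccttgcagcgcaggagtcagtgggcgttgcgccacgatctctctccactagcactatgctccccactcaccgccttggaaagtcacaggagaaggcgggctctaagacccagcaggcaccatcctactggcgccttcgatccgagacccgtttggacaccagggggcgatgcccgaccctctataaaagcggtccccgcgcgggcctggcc

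All 8 genes matched the RefSeq promoter table, with 13 windows in all. In each, 8 motifs were searched on both strands: TGTTTAC and TGTTTGC for FOXA, ATCAAT for ONECUT, GTTAAT for HNF1, CAAAGTCCA for HNF4 with its inner part AAAGTCC, TTGCNNAA for C/EBP and AAGGTCA for NR5A. The upstream Hnf4a window holds ATCAAT at -59 to -54 from the start. The downstream Hnf4a window holds GTTAAT on the opposite strand at -81 to -76 and again at -74 to -69. Nr5a2 holds GTTAAT at -236 to -231 in 1 window and TTGCNNAA, on the opposite strand, at -243 to -236 in the other. Onecut1 and Cebpa hold none of the 8 motifs in these windows. Among 32817 windows of all genes, ATCAAT occurs in 6.73%, GTTAAT in 6.44% and TTGCNNAA in 9.57%. The others occur in 3.16% (TGTTTAC), 4.3% (TGTTTGC), 0.384% (CAAAGTCCA), 3.59% (AAAGTCC) and 4.08% (AAGGTCA). Of the members not printed, Foxa1 holds TGTTTAC on the opposite strand at -141 to -135, and Foxa2 holds ATCAAT in 1 of its windows and GTTAAT in another. Prox1 holds TGTTTGC in 1 window, Foxa3 none, and in all 5 of the 13 windows hold no match. A match is a string of letters and not a shown binding site.

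The first comparison asks how the factors differ between Wip1 KO and WT liver at 24 h. None was 2-fold apart. Foxa1 and Foxa2 were above WT in the KO liver and Nr5a2 and Onecut1 below, all by less than 1.5-fold, while Hnf4a and Foxa3 were near equal. Nr5a2 was 1.40-fold lower in Wip1 KO (log2 ratio -0.48). Onecut1 was 1.29-fold lower (-0.36), Foxa1 1.37-fold higher (0.45) and Foxa2 1.33-fold higher (0.41). These 4 ratios exceed the probe spread of 0.26 and kept their sign under every alternative in which they were measured. The alternatives reprocess the same spots and the probe spread lies within 1 array, so neither measures error between arrays. Hnf4a (0.10) and Foxa3 (0.06) were within that spread, and their sign turned under at least 1 alternative, to -0.08 for Hnf4a in the deposited ratios and to -0.07 for Foxa3 under median centring.

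Of 6 members measured at 24 h, 0 were called, where 2.29% of all 8018 measured genes were. The median log2 ratio of the 6 was 0.08 and that of all genes 0.01. Median centring in place of loess moved the median of all genes to -0.11. Cebpa was above background in WT only. Its Wip1 KO signal, which was not above background, was 1.13-fold lower than its WT level. Such a value sets the bright level against the dim probe's own signal or the lowest signal above background on that array, whichever is higher. For Cebpa the dim probe's own signal was used, so the value is not a limit and does not show a lower level in Wip1 KO. The Foxa2 spot at 24 h and the Foxa1 spot at 36 h carry the flag -100, whose meaning the file headers do not give.

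Lists of related genes put these values beside the rest of the liver programme at 24 h. Of 18 measured other liver transcription factors none was called (median 0.03). Of 14 measured nuclear receptors 1 was called, Nr0b2, which codes for the bile acid responsive repressor SHP and was 2.81-fold higher in Wip1 KO (median of the list -0.07). Above 0 were 4155 of all 8018 measured genes. Of 30 measured hepatocyte products and enzymes that these factors are known to control, 25 were above 0 with a median of 0.30. Only Igfbp1, a secreted binder of insulin-like growth factors, was called in that list, 4.19-fold higher. Of 5 measured fetal and progenitor genes all were above 0, with Prom1 4.04-fold and Spp1 3.28-fold higher. In that list 8 genes were above background in WT and 5 in Wip1 KO, and a gene below background in Wip1 KO has no ratio. Of 17 genes of mitosis and replication 13 were above 0 (median 0.35), led by Mki67 (2.99-fold), Ccnb2 (2.86-fold) and Top2a (2.33-fold).

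The same comparison at 36 h gave another picture. Onecut1 was 2.31-fold higher in Wip1 KO than in WT (log2 ratio 1.21) and Cebpa 2.03-fold higher (1.02). Hnf4a was 1.80-fold higher (0.85) and Nr5a2 1.61-fold higher (0.69). Foxa2 was 1.32-fold higher (0.40), close to its ratio at 24 h, Foxa1 was near equal (0.03, and -0.06 with spot means) and Foxa3 was 1.14-fold lower (-0.20). The nuclear receptor genes, Cebpa and Onecut1 were all above WT by more than the probe spread, and of the forkhead genes only Foxa2 was.

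Of 7 members measured at 36 h, 2 were called, both higher, where 4.72% of all 7460 measured genes were apart and 2.65% higher. At least 1.5-fold higher were 4 of the 7, against 8.71% of all genes, and 6 of the 7 were above 0, against 54%. The median was 0.69 for the 7 and 0.03 for all measured genes. Onecut1 ranked 121 and Cebpa 193 from the top of the 7460 genes, Hnf4a 279 and Nr5a2 467. Onecut1 was at least 2-fold higher under every alternative, from 1.14 to 1.30 on the log2 scale. Cebpa lay on the threshold: it was 0.92 with spot means, under 2-fold, and 1.44 with plain background subtraction. Its WT signal at 36 h was 2.90 background SDs, so a filter at 5 SDs left it out.

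Related gene lists at 36 h are given by their counts. Of 30 measured products and enzymes that these factors are known to control, 27 were above 0, 12 were called higher and 1 lower (median 0.85). Cyp8b1, the sterol hydroxylase that sets the kind of bile acid made, was 9.83-fold higher, the urea cycle enzyme gene Cps1 4.42-fold and the tryptophan oxygenase gene Tdo2 4.24-fold. Igfbp1 was the gene called lower, 3.88-fold. Of 18 other liver transcription factors 13 were above 0 (median 0.19) and 1 was called, Zbtb20, a zinc finger repressor, 2.11-fold higher. Of 15 nuclear receptors 11 were above 0 (median 0.12) and none was called. All 13 measured genes of mitosis and replication were below 0, 6 of them called (median -0.78), with Cdc20 6.18-fold, Ccnb2 5.26-fold and Aurka 4.93-fold lower. The 3 measured fetal and progenitor genes were below 0 as well (median -0.75), none by 2-fold. A gene below background in Wip1 KO has no ratio here. Above background in WT and in Wip1 KO were 6 and 3 fetal and progenitor genes, and 18 and 13 genes of mitosis and replication.

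**Figure D2:**
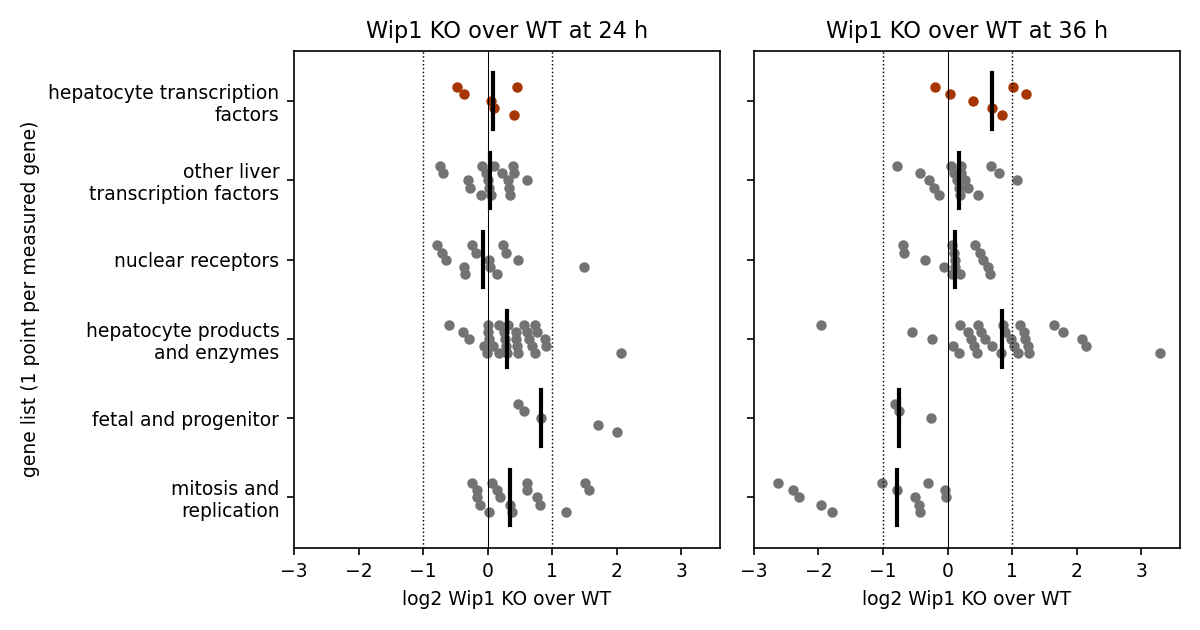
Log2 ratio of Wip1 KO over WT at 24 h (left) and 36 h (right) for 6 gene lists, 1 point per measured gene, with the list median as a bar and 2-fold as dotted lines. The hepatocyte transcription factors (red) have medians of 0.08 and 0.69, and the hepatocyte products and enzymes 0.30 and 0.85.

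Genes that differ between male and female liver also differed between the channels and are given for that reason. All 8 measured male-biased genes were at least 2-fold higher in Wip1 KO at 36 h (median 3.65), such as Elovl3 at 52.2-fold, and all 8 measured female-biased genes at least 2-fold lower (median -4.43), such as A1bg at 84.6-fold. Both measured Y-linked genes were above 0, with Ddx3y 2.65-fold higher. At 24 h the medians were 0.24 over 5 male-biased and -2.13 over 8 female-biased genes, and 0.06 over 2 Y-linked genes. Their part in the ratios of Onecut1, Cebpa, Hnf4a and Nr5a2 was not tested.

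Markers of the cells in the sample were summed per RNA in the order KO 24 h, WT 24 h, KO 36 h and WT 36 h, as normalised intensity. All 4 hepatocyte markers, which the list of products also holds, were above background in every RNA, with sums of 133936, 95085, 140111 and 90409. Bile duct markers had sums of 9021, 3654, 2886 and 4281, with 6, 8, 4 and 8 of 8 above background. Stellate cell and matrix markers had 19721, 11181, 9312 and 11006, with 6, 7, 6 and 6 of 7 above background. All 6 endothelial and all 6 macrophage markers were above background throughout, with sums of 6833 to 9804 and of 10251 to 17649, both highest in KO at 36 h. All 3 erythroid markers had sums of 19776 to 40745, highest in KO at 24 h. Neutrophil markers (2 to 3 of 4 above background, Ltf in none) had sums of 2747 to 4724, highest in WT at 36 h, and adipocyte markers (1 to 3 of 4, Plin1 in none) 2347 to 3576, again highest in WT at 36 h. Of 6 pancreas markers 1 to 2 were above background, and Cpa1, Ctrb1, Prss2 and Pnlip were so in no RNA. In whole tissue, fewer cells of a type and less RNA per cell cannot be told apart. The part of cell mixture in the members' ratios was not tested.

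How the genotype ratio of a gene shifted between the times can be read on 1 probe, and a dye effect that is the same on both arrays cancels in it. Onecut1 went from 1.29-fold lower to 2.31-fold higher in Wip1 KO, a shift of 1.58 on the log2 scale or 2.98-fold. Nr5a2 went from 1.40-fold lower to 1.61-fold higher, a shift of 1.17 or 2.25-fold. Hnf4a shifted by 0.75 or 1.68-fold in the same direction. Foxa1 shifted by -0.42, Foxa3 by -0.25 and Foxa2 by -0.01. No replicate was available to test any of these shifts.

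Among 7025 genes measured in all 4 channels the median shift was 0.03, and 581 genes (8.27%) shifted by at least 2-fold in either direction. Onecut1 lay at percentile 98.9 of the signed shift, Nr5a2 at 97.3 and Hnf4a at 92.1. Onecut1, Nr5a2 and Foxa3 had ratios of opposite sign at the 2 times, which 46.9% of all genes had. Over the alternatives the shift of Onecut1 ran from 1.47 to 1.80, that of Nr5a2 from 1.04 to 1.38 and that of Hnf4a from 0.70 to 0.96, while the sign for Foxa2 turned.

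**Figure D3:**
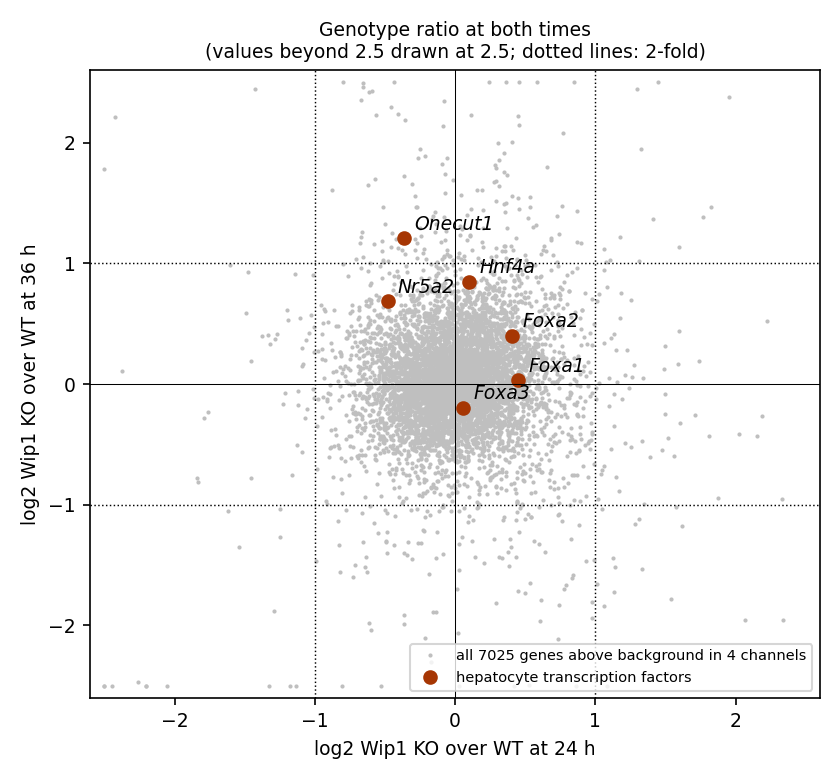
Log2 ratio of Wip1 KO over WT at 24 h (x axis) and at 36 h (y axis) for 7025 genes above background in all 4 channels (grey) and the 6 members among them (red), with values beyond the axis drawn at its edge. Onecut1 (-0.36 and 1.21) and Nr5a2 (-0.48 and 0.69) lie at the upper left, Hnf4a (0.10 and 0.85) at the top, and the forkhead genes nearer the centre.

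The third comparison follows WT liver from 24 h to 36 h, with array and time not to be told apart. No member was 2-fold apart. Nr5a2 was 1.66-fold lower at 36 h (log2 difference -0.73), and Foxa1 was 1.60-fold (0.68) and Foxa2 1.45-fold higher (0.53). Foxa3 was 1.27-fold lower (-0.35), just over the probe spread of 0.33. Hnf4a (-0.18), Cebpa (0.10, and -0.003 with each channel centred on its median) and Onecut1 (0.00, and -0.11 under median centring) were within it.

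Of 7 members measured, 0 were called, where 2.92% of 8587 genes were, and the median was 0.00 for the members and 0.03 for all. Below 0 were 3964 of the 8587 genes. Among 21 other liver transcription factors 14 were below 0, and the PAR bZIP genes Tef and Dbp, whose RNA follows the time of day, were 3.52-fold and 2.75-fold lower at 36 h. Of the nuclear receptors, Nr1d2, a clock repressor, was 2.48-fold lower, Nr1i2, the xenobiotic receptor PXR, 2.15-fold lower and Nr0b2 2.04-fold higher. Of 31 hepatocyte products and enzymes 20 were below 0 (median -0.24), with Cps1 2.51-fold and the tyrosine transaminase gene Tat 2.38-fold lower and Igfbp1 2.79-fold higher. The 17 genes of mitosis and replication had a median of 0.59, with Ccnb2 6.39-fold and Ccnb1 5.48-fold higher and Mcm4 2.86-fold lower. Female-biased liver genes had a median of 0.70 in WT over time, 9 of 10 above 0, male-biased genes one of -0.44 over 6, and the part of these genes in the members' values was not tested. The labels do not give the hour of day at which livers were taken.

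In Wip1 KO liver over the same interval 5 of 6 measured members were above 0. Onecut1 was 2.98-fold higher at 36 h than at 24 h (log2 difference 1.58) and ranked 37 of 7113 genes. Hnf4a was 1.48-fold (0.57), Foxa2 1.44-fold (0.52), Nr5a2 1.36-fold (0.44) and Foxa1 1.20-fold higher (0.26), the last within the probe spread of 0.38. Foxa3 was 1.52-fold lower (-0.60), the same direction as in WT. Cebpa was above background at 36 h only. Its 36 h level was 2.46-fold higher than its own 24 h signal. That signal was not above background, so the value is not a lower limit.

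Of the 6 members measured, 1 was called, where 6.2% of all 7113 genes were. The median was 0.48 for the members and 0.05 for all genes, of which 54.9% were above 0. Of 16 other liver transcription factors 9 were below 0 (median -0.08), with Tef 2.38-fold lower. Of 13 nuclear receptors 7 were above 0 (median 0.32) and 1 was called, Nr1d2, 5.53-fold lower. Of 29 hepatocyte products and enzymes 21 were above 0 (median 0.23), with Igfbp1 5.83-fold lower. All 13 measured genes of mitosis and replication were below 0, 12 of them by at least 2-fold, with Mcm4 4.08-fold, Mcm5 3.38-fold and Mki67 3.20-fold lower. In that list 18 genes were above background in Wip1 KO at 24 h and 13 at 36 h. Other lists moved in the same comparison. All 5 measured male-biased genes were at least 2-fold higher at 36 h (median 1.86), 4 of 7 female-biased genes at least 2-fold lower (median -1.19), and the Y-linked Ddx3y 3.95-fold higher, with a median of 1.34 over 2 Y-linked genes. Stellate cell and matrix markers were all below 0, 4 of 6 by at least 2-fold (median -1.49), with Acta2 7.12-fold lower. Fetal and progenitor genes above background in Wip1 KO were 5 at 24 h and 3 at 36 h. The 3 measured, which are also bile duct markers, were all at least 2-fold lower (median -1.56). Of 6 macrophage markers 2 were at least 2-fold higher (median 0.82). Their part in the values of Onecut1, Cebpa and the other members was not tested. The genotype and time comparisons share channels, so these values are not independent of those at 36 h.

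**Figure D4:**
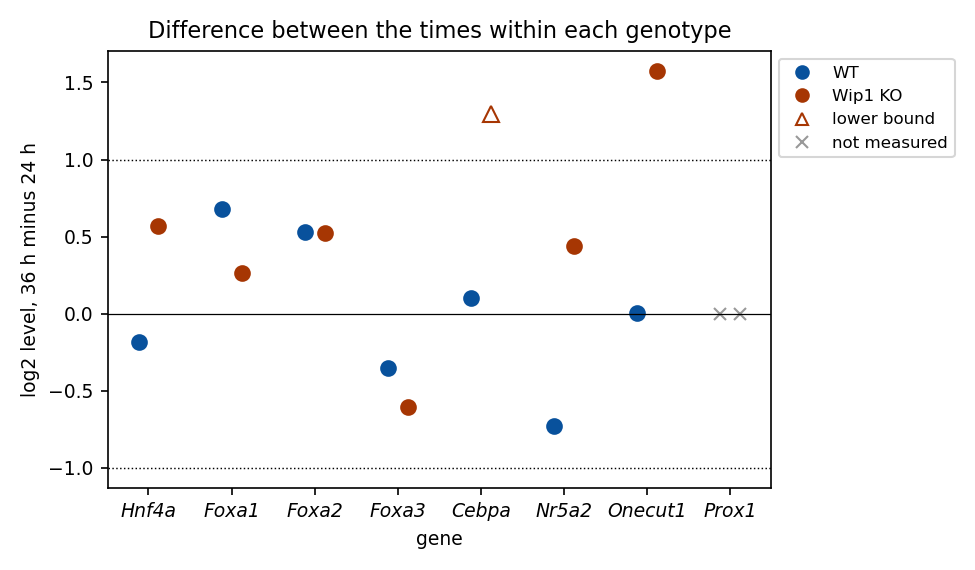
Log2 level at 36 h minus 24 h of each gene in WT (blue) and Wip1 KO (red), with 2-fold as dotted lines, 1 probe per gene and no error bars because there is no replicate. Onecut1 is at 0.00 in WT and 1.58 in Wip1 KO, and Nr5a2 at -0.73 and 0.44. The triangle for Cebpa, named a lower bound in the key, sets its 36 h level in Wip1 KO against its own 24 h signal. That signal was not above background, so the triangle is not a limit. Crosses mark Prox1, which was not measured.

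Likeness of pattern was measured as the root mean square difference of log2 levels, each gene centred on its own mean over the 4 channels, among the 7025 genes measured in all 4. With 4 points per gene this is a description. Foxa1 and Foxa2 were the closest pair of members, at 0.13, and Foxa2 was the 125th closest of all genes to Foxa1. Onecut1 and Foxa3 were the least alike, at 0.82. The genes closest to Hnf4a were Ppdpf (0.028), Mtcl1 (0.035) and Nkiras2 (0.040), and those closest to Nr5a2 were Socs3 (0.020), Lrg1 (0.042) and Gpr108 (0.050). Onecut1 had no gene as close, with Cry1 at 0.078, Palm at 0.082 and BC031353 at 0.10. Foxa1 was closest to Cbwd1 (0.015), Jph4 (0.025) and Nat2 (0.045), Foxa2 to Ap4b1 (0.035), Gpcpd1 (0.036) and Pspc1 (0.053), and Foxa3 to Tubgcp6 (0.018), Mapk3 (0.020) and Fads2 (0.024).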

How the data were processed

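Liver RNA was measured on 2 arrays with 2 colours, 1 per time, 635 nm (Cy5) for Wip1 KO and 532 nm (Cy3) for WT. The scanner files hold foreground and background intensity per spot, not normalised, as deposited by the authors. A spot flag, deposited without a stated meaning, was used in 1 alternative. A further deposited table gives a ratio of KO over WT for each feature on a linear scale, with normalisation not given in the sources used here and centred near 1 (medians 0.982 and 0.991). Its rows were matched to probes by order, in falling order of probe number after 4 control rows, and the match was checked by the correlation over all probes measured (0.971 at 24 h and 0.974 at 36 h, but 0.026 and 0.043 if moved by 1 row), and it was used in an alternative. No column was left unmapped (0).

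Background was corrected by normexp (offset 50), ratios by loess within arrays with control spots at weight 0, and arrays by Aquantile for the comparisons of times, in limma 3.58.1 (R 4.3.3). The script was tested on simulated data. Genes of several probes took the probe with the highest mean level. Names were brought to current symbols with the RefSeq gene table (14166 of 19498 names are symbols, 3898 synonyms). Further software was pandas 2.3.3, matplotlib 3.10.9 and numpy 2.4.6 under Python 3.11.15. Saturated spots (1 to 15 in 3 channels) were kept.

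Named are all 8 members, up to 3 members of each list with the largest ratio among those at least 2-fold apart, and the 3 genes most like each member. The members and lists were chosen with earlier results of these data known. Alternatives were plain subtraction, spot means, median centring, print-tip loess, other scalings, filters, thresholds and the deposited ratios. Probes without a gene name (7528) or with a date for a name (23) were left out.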

Additional observations from a re-analysis of the deposited data

Results flagged for a closer look

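The genotype ratios of 3 members had opposite signs at 24 h and 36 h. Each time has 1 array, so the difference between the times was not tested. The log2 ratio of Wip1 KO over WT at 36 h minus that at 24 h was 1.58 for Onecut1, 1.17 for Nr5a2 and -0.25 for Foxa3. For Foxa3 both ratios were within the spread between probes of 1 gene. Among all genes measured in the 4 channels, 46.9% had opposite signs and 8.27% a shift of at least 2-fold.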

How the results depend on the processing

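No paired analysis was possible because each group has 1 array, and for the same reason leaving out replicates was not possible. All 4 medians over the members moved by less than the probe spread under every alternative. The count of members at least 2-fold apart at 36 h, 2 of 7, became 1 with spot means, 1 with print-tip loess, 1 with a filter at 5 background SDs that left 4 members, and 4 at a threshold of 1.5-fold. At 1.5-fold, 650 of all 7460 genes were higher and 433 lower at 36 h. In WT over time the count of members went from 0 to 2 at 1.5-fold, where 458 of all 8587 genes were higher and 466 lower. In Wip1 KO over time the count of members went from 1 to 2 without the filter on dim spots and at 1.5-fold. At that threshold 740 of all 7113 genes were higher and 702 lower. The count of members also became 2 with Cebpa, above background in 1 channel, set against its own dim signal. The filter at 5 SDs, the values for members above background in 1 channel and a choice of spots by flag were added after seeing the data. Of 315 recomputed member values, 11 changed sign, all of values near 0, and 2 moved by more than the spread: Cebpa at 36 h with plain subtraction (1.44) and in the deposited ratios (1.40).

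The split of all genes into higher and lower depended on the processing: at 24 h 122 and 62, but 84 and 92 under median centring, 231 and 91 with plain subtraction and 224 and 85 in the deposited ratios. At 36 h 198 and 154 of 7460 genes became 241 and 126 under median centring. Without the filter on dim spots they became 218 and 236, but over 19439 genes. In WT over time 117 and 134 became 93 and 167 under median centring and 253 and 214 with plain subtraction. In Wip1 KO over time 185 and 256 of 7113 genes became 263 and 209 under median centring and 306 and 353 with plain subtraction. Without the filter they became 308 and 504, again over 19439 genes. The cause was not tested. Signal over background limits Cebpa, Foxa1 and Foxa2, and gives no value for Prox1.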
